A study of Mus musculus with 6 samples.

Results

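Lipid-associated macrophages are macrophages with a lipid-handling and lysosomal programme, and the genes described here are 10 of that programme: Trem2, Gpnmb, Itgax, Cd9, Cd68, Cd63, Atp6v0d2, Spp1, Lgals3 and Mmp12. They were taken by name from a list, and each gene was read from the probe set that names it alone and has the highest mean signal over the 6 arrays. Of the 10 genes, 8 had such a probe set, among 18194 genes in all. Cd63 and Spp1 were not analysed here. The floor was passed by 7 of the 8 on 1 or more arrays and by 4 on all 6, the floor being a signal of 221.4, the median of all deposited values, to which lower signals were raised before log2 values were taken.

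Liver RNA of male C57BL6/J mice was hybridised to Affymetrix Mouse Genome 430 2.0 arrays, which report each transcript as a fluorescence signal. Mice were 6 to 8 weeks old at the start, and RNA from 3 to 4 livers was pooled for each of 6 groups, so that a group is 1 array. In the 2-month study the groups were chow, a fast-food diet (21% fat and 34% sucrose by weight, 0.2% cholesterol, with glucose at 18.9 g/L and fructose at 23.1 g/L in the water), and that diet with canertinib, an irreversible inhibitor of EGFR and related receptor kinases, mixed into the food to give 80 mg/kg daily. In the 5-month study the groups were chow, the fast-food diet with vehicle (PBS) injections, and the fast-food diet with canertinib injected intraperitoneally at 80 mg/kg, both injected on 5 days per week in the last 5 weeks. No injection is named for the 5-month chow mice, so diet and injection cannot be told apart there, and the route and duration of the drug differ between the studies. With 1 array per group no difference within a study has an error or a test, and precision is limited by how few arrays there are. In bulk liver RNA, fewer cells of a type and less RNA per cell cannot be told apart.

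In fatty liver, monocytes recruited from blood can take on the lipid-associated state and gather where hepatocytes are loaded with lipid or dying. TREM2 is a receptor for lipids and lipoproteins that signals through the adaptor TYROBP and is known to promote the programme. Its known products include surface receptors, lysosomal proteins for the breakdown of engulfed lipid, and secreted proteins that act on matrix and other cells. Several of the genes are not restricted to these cells, since Itgax is also a dendritic cell gene and Cd9 is expressed by platelets and epithelial cells.

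The promoters of 4 of the genes are shown, and these genes were higher with the diet at 5 months and lower with the drug there, by different amounts. Gpnmb also went this way (log2 differences of at least 2.85 and of -0.50), and its promoter, which had no match, is not printed. The 4 are thus not all of the genes with that pattern. Each sequence is the 250 bases before an annotated RefSeq transcription start in GRCm38.p6, written from 5′ to 3′ on the strand of the gene, with matches to the AP-1 motif TGANTCA on either strand in capitals. AP-1 is a transcription factor family that acts downstream of growth factor and inflammatory signalling.
Lgals3, chr14:47373610-47373859, plus strand: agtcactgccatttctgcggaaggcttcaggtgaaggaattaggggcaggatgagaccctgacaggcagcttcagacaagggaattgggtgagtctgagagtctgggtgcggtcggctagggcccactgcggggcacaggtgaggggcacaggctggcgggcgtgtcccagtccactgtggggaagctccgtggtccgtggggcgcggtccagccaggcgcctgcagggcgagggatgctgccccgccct
Mmp12, chr9:7347124-7347373, plus strand: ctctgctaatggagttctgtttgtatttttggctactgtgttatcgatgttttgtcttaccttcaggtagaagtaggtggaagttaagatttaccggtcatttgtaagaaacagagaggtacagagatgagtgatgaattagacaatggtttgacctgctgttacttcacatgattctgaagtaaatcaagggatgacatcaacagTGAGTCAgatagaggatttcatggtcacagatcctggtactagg
Cd68, chr11:69666171-69666420, minus strand: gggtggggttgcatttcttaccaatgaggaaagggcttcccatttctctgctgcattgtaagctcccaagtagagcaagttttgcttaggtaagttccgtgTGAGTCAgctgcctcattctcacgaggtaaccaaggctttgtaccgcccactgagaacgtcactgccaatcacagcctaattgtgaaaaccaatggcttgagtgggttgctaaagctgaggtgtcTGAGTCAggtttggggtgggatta
Itgax, chr7:128129300-128129549, plus strand: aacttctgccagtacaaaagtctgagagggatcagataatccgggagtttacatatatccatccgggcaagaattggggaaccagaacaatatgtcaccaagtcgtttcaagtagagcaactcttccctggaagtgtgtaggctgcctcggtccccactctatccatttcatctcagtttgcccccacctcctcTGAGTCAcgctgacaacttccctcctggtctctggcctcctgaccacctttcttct
Of the 8 genes with values, 7 had a promoter entry, and 4 of these had at least 1 match. Cd68 had 2 matches, Itgax and Trem2 had 1 each, and Mmp12 had 1 before the start shown and none before its other annotated start. Lgals3, Gpnmb and Cd9 had no match in this window. Of all 32851 promoter windows of this length, 6.75% held the motif. The E-box CACGTG, a motif of the lysosomal regulator TFEB, was in none of the 8 windows and in 6.02% of all windows, and CATGTG, the core of a motif of the related factor MITF, was in 2 of the 8 (Cd9 and Mmp12) and in 12.3% of all. A match is a run of letters and was not tested as a binding site.

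The first question was how the diet and chow arrays differed in these genes. At 5 months 7 of the 8 genes with values were at least 2-fold higher with the diet, where 2.72% of 13989 measured genes were, and at 2 months 1 of the 8 was, Lgals3, where 1.98% of measured genes were. None was at least 2-fold lower at either time, against 1.55% of measured genes at 2 months and 1.83% at 5 months. The median log2 difference of the 8 genes was 1.57 at 5 months and 0.19 at 2 months, against 0.00 over all measured genes at both times. Trem2, at the floor on every array, enters these medians as 0.00 and the counts as not different. The measured genes hold no gene that is at the floor on every array. Gpnmb and Mmp12 were above the floor only on arrays where they were high, and so had to differ once measured, whereas Lgals3, Cd68, Cd9 and Itgax were above it on all 6 arrays. Between the chow arrays, which differ in study and not in diet, none of the 8 was at least 2-fold higher or lower, against 1.28% and 1.32% of measured genes.

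**Figure D1:**
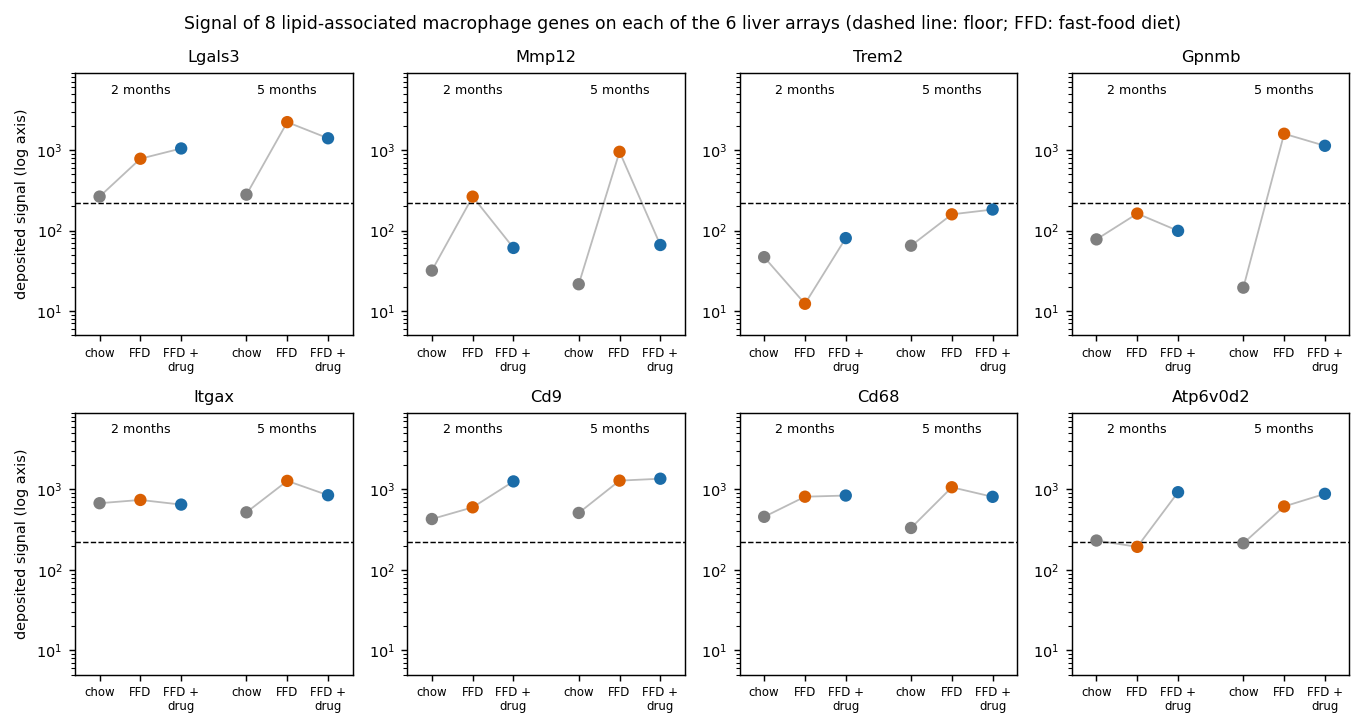
Deposited signal (log axis) of each of the 8 genes on the 6 arrays, 1 point per array, in grey for chow, orange for the fast-food diet (FFD) and blue for the diet with canertinib, with the floor of 221.4 as a dashed line. Lgals3 is highest on the 5-month fast-food array at 2221.8, Mmp12 is above the floor on the fast-food arrays alone, and Trem2 is under the floor on every array.

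Among the secreted proteins, Lgals3 encodes galectin-3, a lectin made by activated macrophages. Its signal was 264.0 on the 2-month chow array, 779.9 with fast food and 1046.0 with the drug. At 5 months it was 278.9 with chow, 2221.8 with fast food and 1400.1 with the drug. Both chow arrays were thus the lowest and lay close together, and the diet difference was 2.95-fold at 2 months and 7.97-fold at 5 months. Mmp12 encodes macrophage elastase, a metalloproteinase that degrades elastin. It had signals of 31.8 with chow, 263.6 with fast food and 60.8 with the drug at 2 months, and of 21.5, 951.0 and 66.1 at 5 months. Only the fast-food arrays were above the floor, the 2-month one barely so, and they exceeded chow by at least 1.19-fold at 2 months and at least 4.30-fold at 5 months.

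Among the surface receptors, Trem2 itself was not measurable on these arrays. Its probe set read 46.7, 12.3 and 80.5 for chow, fast food and drug at 2 months and 64.8, 158.9 and 182.3 at 5 months, and its other probe set was also under the floor everywhere. No difference is given for it. Gpnmb, a transmembrane glycoprotein of lipid-laden and lysosome-stressed macrophages, had signals of 77.6, 162.4 and 99.1 at 2 months and of 19.5, 1593.4 and 1129.2 at 5 months in the same order. It was thus above the floor only on the 5-month fast-food arrays with and without the drug, and was at least 7.20-fold higher with the diet at 5 months. The second Gpnmb probe set was under the floor on all arrays and gives no check.

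Itgax, which encodes the integrin alpha chain CD11c, had signals of 672.4, 738.5 and 646.2 at 2 months, which differed little, and of 517.9, 1273.4 and 845.0 at 5 months, where the fast-food array was the highest of the 6. The diet difference was 1.10-fold and then 2.46-fold. Cd9 encodes a tetraspanin of membrane microdomains and vesicles. Its signals were 427.7, 597.5 and 1254.4 at 2 months, then 509.0, 1282.8 and 1355.0 at 5 months. Chow was lowest in both studies, and the log2 difference with the diet was 0.48 and 1.33, the latter 2.52-fold.

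Among the lysosomal proteins, Cd68, a heavily glycosylated membrane protein of macrophage lysosomes, had signals of 455.5, 810.0 and 837.3 at 2 months and of 331.2, 1061.5 and 807.0 at 5 months. It was lowest on both chow arrays, with diet differences of 1.78-fold and 3.21-fold. Atp6v0d2 encodes a macrophage and osteoclast form of the d subunit of the proton pump that acidifies lysosomes. The probe set used here read 231.1, 193.0 and 921.8 at 2 months, then 213.7, 612.6 and 879.3 at 5 months, so that it was near or under the floor on both chow arrays and on the 2-month fast-food array. At 5 months it was at least 2.77-fold higher with the diet, but the other Atp6v0d2 probe set was not higher. That probe set read 423.1, 380.6 and 646.3 at 2 months, then 326.7, 316.0 and 728.3 at 5 months, a diet log2 difference of -0.15 and -0.05. The mean of both gave 0.71 at 5 months, under 2-fold, and so did a floor at the 60th percentile, with 0.93.

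**Figure D2:**
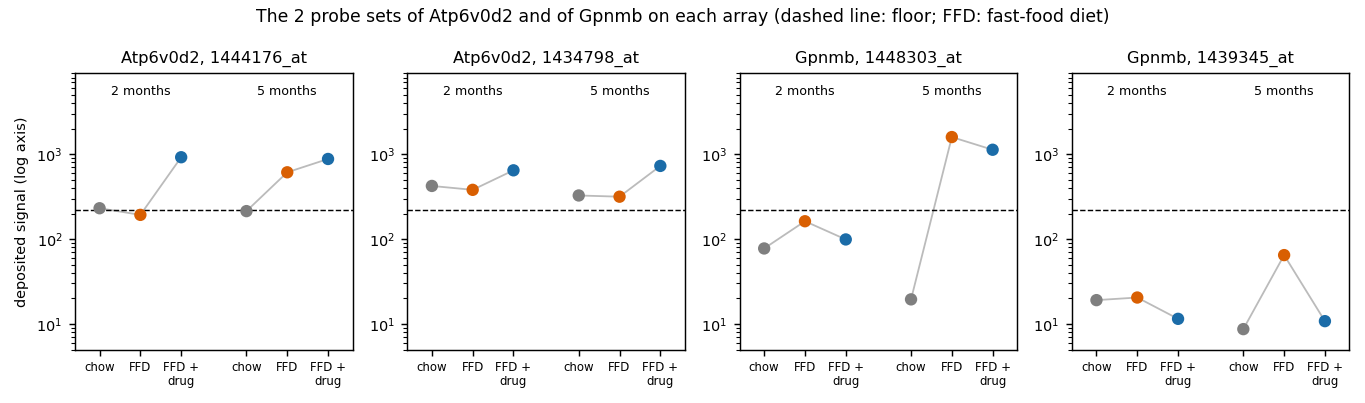
Deposited signal (log axis) of both probe sets of Atp6v0d2 and of Gpnmb on the 6 arrays, with the floor dashed and colours for chow (grey), fast-food diet (orange) and diet with canertinib (blue). For Atp6v0d2 both probe sets are highest on the drug array in each study, and only the one used in the text is higher with the diet at 5 months, at 612.6 against 213.7.

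A limma fit over all 6 arrays took the studies as repeats, with study as a term, and left 2 residual degrees of freedom, and an effect that is unlike in the studies adds to its error. For the diet it called none of the 7 genes that were measured, where 0.0286% of measured genes were called at a Benjamini-Hochberg adjusted p under 0.05. At an unadjusted p under 0.05 it had 3 of the 7, Lgals3, Cd68 and Cd9, against 9.87% of measured genes. Lgals3 had the lowest adjusted p of the 7 in limma, at 0.193, with a log2 difference of 2.28 and a standard error of 0.37, and the difference had that sign in both studies. Cd68 followed with 1.26, a standard error of 0.27 and an adjusted p of 0.252. When only genes above the floor on all arrays were tested, limma gave adjusted p of 0.0123 for Lgals3 and 0.0497 for Cd68, a filter under which 1.36% of 9874 genes were called.

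The second question was how these genes differed when canertinib was given with the fast-food diet. At 2 months 2 of the 8 genes, Atp6v0d2 and Cd9, were at least 2-fold higher with the drug than with the diet alone and none was at least 2-fold lower, where 3.55% and 3.26% of measured genes were. At 5 months none was at least 2-fold higher and 1, Mmp12, was at least 2-fold lower, where 2.19% and 2.73% were. The medians of the 8 genes, with Trem2 again entered as 0.00, were 0.02 and -0.45 on the log2 scale, against 0.00 over all measured genes. These comparisons share the fast-food arrays with those of the diet, so the values of each are given side by side and not as a relation.

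**Figure D3:**
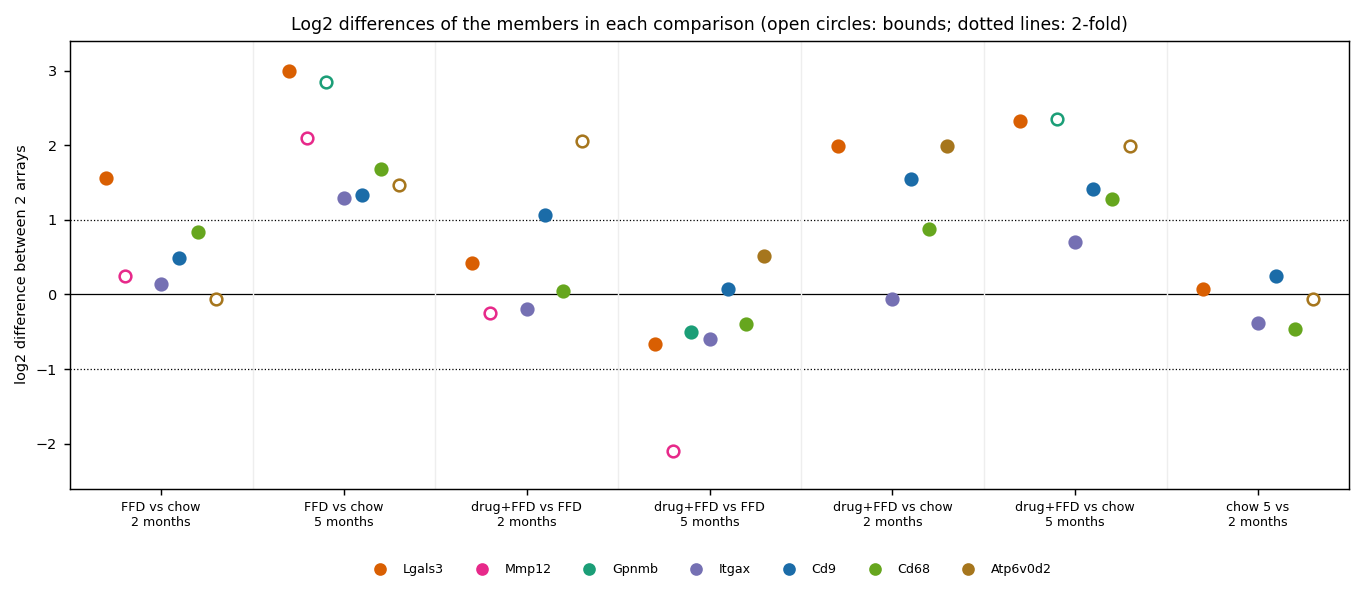
Log2 difference between 2 arrays for the 7 measured genes in each comparison, 1 point per gene, with open circles for bounds where 1 of the 2 arrays was at the floor, no point where both were, and dotted lines at 2-fold. At 5 months all 7 points of the diet comparison lie above the upper line, while in the 5-month drug comparison Mmp12 alone lies beyond a line, at -2.10.

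Mmp12 was under the floor on both drug arrays, with the signals of 60.8 and 66.1 given above, and the drug array was lower by at least 4.30-fold at 5 months and at least 1.19-fold at 2 months. Lgals3 was 1.34-fold higher at 2 months and 1.59-fold lower at 5 months. Gpnmb, Itgax and Cd68 were 1.41-fold, 1.51-fold and 1.32-fold lower at 5 months, each under the 2-fold line. At 2 months Itgax and Cd68 differed by -0.19 and 0.05 on the log2 scale, and the sign for Cd68 turned under median centring, with -0.06. With the drug Cd9 was higher by 2.10-fold at 2 months and by 1.06-fold at 5 months, and under median centring its 2-month log2 difference of 1.07 became 0.97. For Atp6v0d2 the drug array was higher by at least 4.16-fold at 2 months and by 1.44-fold at 5 months. Its other probe set was also higher with the drug, by log2 differences of 0.76 and 1.20, so for this gene both probe sets were higher with the drug in both studies. Of the 7 genes, limma called none for the drug, where 0.715% of measured genes were called. Atp6v0d2 alone had an unadjusted p under 0.05, against 14.8% of measured genes, with a log2 difference of 1.29, a standard error of 0.44 and an adjusted p of 0.267 in limma. For Mmp12 the limma difference was -1.18 with a standard error of 0.48 and an adjusted p of 0.348.

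Set against chow, 3 of the 8 genes were at least 2-fold higher in the drug-treated liver at 2 months, where 3.8% of measured genes were, and 5 of the 8 at 5 months, where 2.82% were. The 3 were Lgals3, Cd9 and Atp6v0d2, with 3.96-fold, 2.93-fold and 3.99-fold. The other Atp6v0d2 probe set had log2 differences from chow of 0.61 at 2 months, under 2-fold, and 1.16 at 5 months. At 5 months Lgals3 was 5.02-fold higher than in chow, Cd9 was 2.66-fold and Cd68 2.44-fold higher. Gpnmb was at least 5.10-fold higher and Atp6v0d2 at least 3.97-fold. Itgax was 1.63-fold higher, and Mmp12 was under the floor with the drug and with chow. The median log2 difference of the 8 genes was 0.44 and 1.35, again with Trem2 entered as no difference. In limma no gene of the 7 was called, where 0.765% of measured genes were. At an unadjusted p under 0.05 it had 4 of the 7, Lgals3, Cd9, Atp6v0d2 and Cd68, against 15.6%. The lowest adjusted p in limma was 0.0909, for Lgals3, with a log2 difference of 2.16 and a standard error of 0.37. With only genes above the floor on all arrays, limma called 3 of the 4 remaining genes and 4.07% of the 9874 tested, with adjusted p of 0.00730 for Lgals3, 0.0181 for Cd9 and 0.0470 for Cd68.

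Across the 6 arrays the 7 measured genes varied alike to different degrees. Pearson's r of the log2 signals, given as a description over 6 arrays that share diets and studies, was above 0 in all 21 pairs and above 0.5 in 18, with a median of 0.71. It was highest between Cd9 and Atp6v0d2, at 0.96, and lowest between Atp6v0d2 and Mmp12, at 0.21, which were at the floor on 2 and 4 of the 6 arrays. Both values rest on 1 probe set of Atp6v0d2. Its other probe set, which was not higher with the diet at 5 months, was not used for r. Of 3459 other genes that spanned at least 1 log2 unit, the 8 most like the mean of the 7 measured genes were Nid1, Clca3a1, Ctss, Iqgap1, Dock10, Pygb, Orai3 and AB124611, with r from 0.97 to 0.99, and 55 had an r above 0.9. Pygb and AB124611 were under the floor on both chow arrays and the 2-month fast-food array, and Dock10 on the 5-month chow array. Their r thus rests in part on signals raised to the floor. Ctss, the cathepsin of antigen-presenting cells, is itself on the list of other programme genes and had signals of 1108.4, 2096.2 and 2923.2 at 2 months and of 1337.7, 6020.7 and 5234.4 at 5 months for chow, fast food and drug. Nid1, a basement membrane glycoprotein, had 288.8, 378.2 and 763.0 and then 277.4, 1484.0 and 1082.5. Both were highest on the 5-month fast-food array and lowest with chow.

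Other genes of lipid-associated macrophages and foam cells were taken from a list of 36, of which 32 were measured. At 2 months 7 of the 32 were higher with the diet by 2-fold or more and 1 was lower, against 1.98% and 1.55% of measured genes. At 5 months 10 were higher and 2 lower, against 2.72% and 1.83%, and the medians were 0.52 and 0.61. With the drug 4 were higher and 4 lower at 2 months, against 3.55% and 3.26%, and 4 were higher and 2 lower at 5 months, against 2.19% and 2.73%. Their medians of 0.09 and -0.16 were small, and at 2 months the sign turned under quantile normalization (-0.02) and median centring (-0.01). The 4 genes with the largest mean diet difference were Cd36, Anxa5, Fabp4 and Clec7a. The scavenger receptor gene Cd36, which hepatocytes also express, had log2 differences of 2.18 and 2.29 with the diet and of -1.60 and -0.90 with the drug. Anxa5, which encodes a phosphatidylserine-binding annexin, had 1.72 and 2.46 and then -1.14 and -1.22. Clec7a, the beta-glucan receptor dectin-1, had 1.10 and 2.38 and then -0.62 and -0.72. These 3 were lower with the drug in both studies, whereas Fabp4, a fatty acid binding protein of adipocytes and macrophages, had 1.63 and 2.39 with the diet and 1.25 and -0.31 with the drug.

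The partner proteins of single genes on the list were also read. For the counts that follow, 1.98% and 2.72% of measured genes were at least 2-fold higher with the diet at 2 and 5 months, and 1.55% and 1.83% lower. With the drug 3.55% and 2.19% were at least 2-fold higher and 3.26% and 2.73% lower. Of 14 ubiquitous subunits and accessory proteins of the proton pump of Atp6v0d2, 1 was at least 2-fold higher with the diet at 2 months, Atp6v1b2, and none at 5 months or with the drug at either time. Atp6v1b2 was at the floor on the 2-month chow array and above it on the 5-month one (155.1 and 697.1). Of 13 other tetraspanins, 2 were at least 2-fold higher with the diet at 5 months while 1 was at least 2-fold lower at 2 months, and among those with the largest diet differences the leukocyte gene Cd53 had -0.02 and 1.39 and Tspan33 had -0.97 and -0.88. Of 10 measured receptors and relatives of galectin-3, osteopontin and CD11c, 1 and then 3 were at least 2-fold higher with the diet, and 2 and then 1 were at least 2-fold lower with the drug. Itgb2, whose product pairs with CD11c, had 0.75 and 2.35 with the diet and 0.69 and -0.0009 with the drug. Cd44, a receptor of osteopontin and hyaluronan, had 0.82 and 1.60 and then -0.02 and 0.25. Lgals1, the galectin-1 gene, had 1.75 and 2.48 with the diet and was lower with the drug by log2 differences of -2.91 and -2.82, against 0.42 and -0.67 for Lgals3. Of 8 measured metalloproteinases and inhibitors beside Mmp12, 1 was at least 2-fold higher with the diet at 5 months, the inhibitor Timp2, which had 0.84 and 1.48 and with the drug -1.10 and -0.99. None of the others was at least 2-fold different with the drug at either time.

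Markers of several liver cell types differed along the same groups. Of 12 macrophage and monocyte markers, 11 were measured, and Itgam was at the floor on every array. With the diet 4 and then 5 of the 11 were at least 2-fold higher, against 1.98% and 2.72% of measured genes, and none was at least 2-fold lower. Fcgr1 was lower by less than 2-fold, with -0.60 and -0.13. The median differences were 0.79 and then 0.84. The summed signal of the list was 12462 and 11982 on the chow arrays, 23459 and 26449 with fast food and 26127 and 33085 with the drug. With the drug the medians of this list were 0.00 and 0.22, and 1 of 11 was at least 2-fold higher at each time, against 3.55% and 2.19% of measured genes. Lyz2, the lysozyme gene of myeloid cells, had diet differences of 1.15 and 2.33. All 10 genes on the list of resident Kupffer cell markers were measured. Of these, 4 were at least 2-fold higher with the diet at each time, against 1.98% and 2.72% of measured genes. They were the complement genes C1qa, C1qb and C1qc and the scavenger protein gene Cd5l, with C1qa at 2.16 and 2.50. Clec4f, Vsig4 and Folr2 were higher by less than 2-fold, with 0.97 and 0.60, 0.50 and 0.89, and 0.25 and 0.56. The scavenger receptor genes Cd163 and Marco and the receptor gene Timd4 were not higher at 5 months, with -0.01, -0.22 and -0.11, and Cd163 had -0.35 at 2 months. The summed signal of the 10 was 8860 and 8931 with chow, 21905 and 29712 with fast food and 30357 and 32800 with the drug, and of the 29712 on the 5-month fast-food array Cd5l had 11849.5, C1qa 5179.0, C1qc 4193.1 and C1qb 3058.0. The macrophage sums were thus lowest with chow and highest with the drug in each study, as the Kupffer sums were. A sum leans on its strongest genes, and Csf1r alone had 7338.1 of the 23459 with fast food and 10378.6 of the 26127 with the drug at 2 months. The part of cell numbers in the differences of the 8 genes was not tested.

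**Figure D4:**
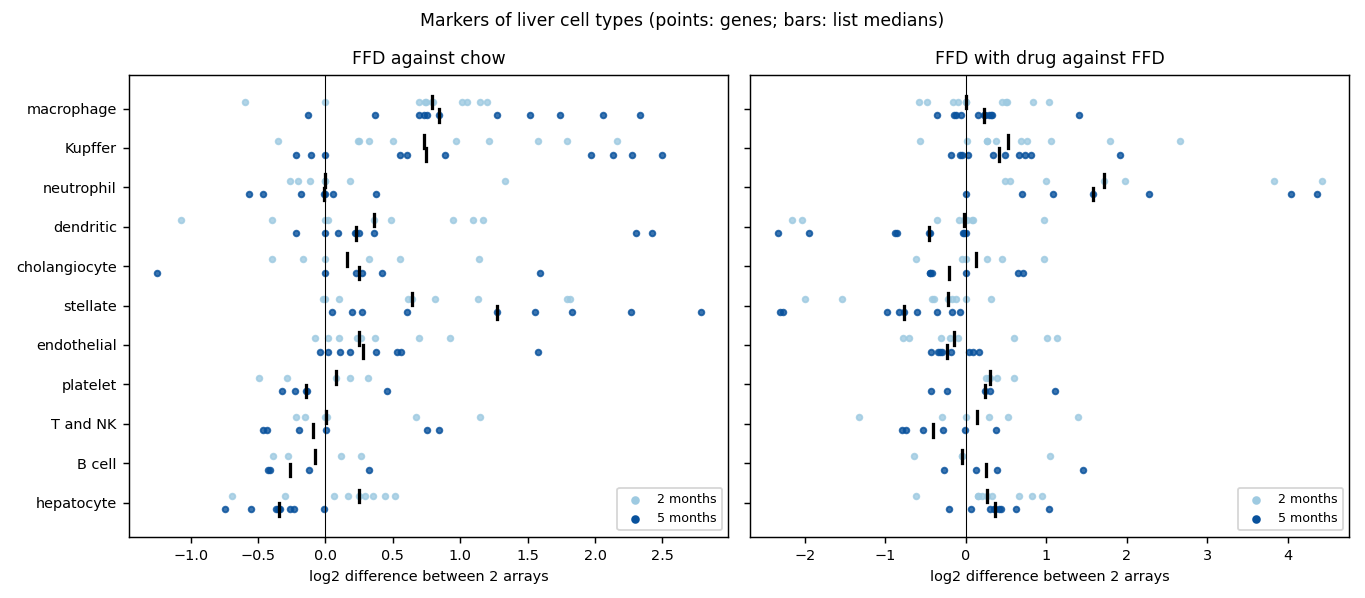
Log2 differences of markers of 11 liver cell types, 1 point per gene, for fast-food diet (FFD) against chow and for diet with drug against diet, light blue at 2 months and dark blue at 5 months, with black bars at list medians. Macrophage and Kupffer medians lie between 0.73 and 0.84 with the diet, stellate medians are 0.64 and 1.28 with the diet, and neutrophil medians are 1.72 and 1.58 with the drug.

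Neutrophil markers, of which 7 of the 8 with a probe set were measured and Camp was at the floor, had medians of 0.00 and -0.01 with the diet and of 1.72 and 1.58 with the drug. Their summed signal was 2843 and 3151 with chow, 3011 and 2671 with fast food and 15162 and 16418 with the drug. In each study it was thus highest on the drug array, as Cd9 and Atp6v0d2 were, and the part of neutrophils in those values was not tested. Dendritic cell markers, 9 of 10 measured with Ccr7 at the floor, had summed signals of 5623 and 6132, then 9832 and 21235, then 4285 and 6249. Their medians with the diet were 0.36 and 0.22. At each time 2 of the 9, Cd74 and H2-Aa, were at least 2-fold higher with the diet, against 1.98% and 2.72% of measured genes, and 1 was at least 2-fold lower at 2 months. The class II antigen presentation genes Cd74 and H2-Aa had 8659.0 and 9750.5 of the 21235 on the 5-month fast-food array, where Itgax was also highest, and the part of dendritic cells in the Itgax values was not tested. Platelet markers, which bear on Cd9, had summed signals of 3238, 3104 and 4072 at 2 months and of 3155, 3045 and 3320 at 5 months for chow, fast food and drug, with 5 of 6 measured and Gp9 at the floor. With the drug at 2 months all 5 were higher than with the diet alone, with a median of 0.30 and none at 2-fold. Cholangiocyte markers had sums of 2004, 2475 and 3333 and then 2134, 2398 and 2385, with Krt7 and Cftr at the floor on all arrays and 6 of 8 measured. Both lists thus had their highest sum on the 2-month drug array, where Cd9 read 1254.4 and was 2.10-fold higher than with the diet alone. The endothelial cell, T and NK cell and hepatocyte marker lists also had their highest sum there, at 11646, 4355 and 476033. At 5 months Cd9 read 1282.8 with fast food and 1355.0 with the drug, where the platelet and cholangiocyte sums were lower than on the 2-month drug array. The part of platelets and cholangiocytes in the Cd9 values was not tested. Stellate cell markers, 9 of 9 measured, had sums of 12084 and 10106 with chow, 21574 and 28319 with fast food and 20278 and 15025 with the drug. Dcn alone had 12830.6 of the 20278. Their diet medians were 0.64 and 1.28, the latter the largest 5-month median of the cell type lists, with 7 and then 9 of 9 higher. With the drug 7 and then 9 of 9 were lower, with a median of -0.76 at 5 months. The part of stellate cells in the values of the 8 genes was not tested. All 9 hepatocyte markers with a probe set, Alb among them, were above the floor on all arrays. At 5 months all 9 were lower with the diet, with a median of -0.34 and summed signals of 361145 with chow and 287964 with fast food, while 7 of 9 were higher at 2 months, with a median of 0.25. These medians depended on the normalization. They were -0.08 at 5 months and 0.01 at 2 months under quantile normalization, and -0.12 and 0.07 under cyclic loess. None was 2-fold different with the diet, and the part of hepatocyte RNA in the 5-month differences of the 8 genes was not tested. The actin 3′ minus 5′ log2 difference, a sign of RNA quality, was 1.19 and 1.12 on the drug arrays and between 0.85 and 0.98 on the others. The same difference for Gapdh did not set the drug arrays apart, with -0.20 and -0.14 against -0.18, -0.30, -0.09 and -0.22, and the part of RNA quality in the drug differences was not tested.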

How the data were processed

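Each array held liver RNA pooled from 3 to 4 mice, and per the submitters' processing notes the authors made the values with MAS5, with no version named in these sources. Deposited intensity values are linear and, judged from the numbers, the authors scaled every array to a mean of 500 without its lowest and highest 2% of probe sets. Of 45101 probe sets, 34958 name 1 gene in the platform annotation of GEO, 932 several and 9211 none.

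A gene was represented by its 1-symbol probe set with the highest mean signal. Signals under 221.4, the 50th percentile of all values, were raised to it, log2 values were taken, and 13989 of 18194 genes above it on at least 1 array were tested. Differences against an array at the floor are bounds. Single arrays were compared at a 2-fold threshold, with no test. The limma fit (terms for treatment and study, variance trend) was adjusted by Benjamini-Hochberg over all tested genes. Procedures were tested on simulated data. The genes and lists were chosen with earlier results of these data known, and lists name their 4 members with the largest mean diet difference in size and the 8 genes most alike in pattern. The alternatives tried were other normalizations, floors, probe set rules, thresholds, filters and fit terms. Python 3.11.15, NumPy 2.4.6, pandas 2.3.3, SciPy 1.17.1, matplotlib 3.10.9, R 4.3.3 and limma 3.58.1 were used.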

Additional observations from a re-analysis of the deposited data

Results flagged for a closer look

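In 4 cases the differences of a gene in the 2 studies had opposite signs, each on a single pair of arrays per study, and the difference between the studies was not tested, since the fit has no degrees of freedom left for it. With the diet, Atp6v0d2 had log2 differences of -0.06 at 2 months and 1.47 at 5 months, which lie 1.53 apart, and both are bounds at the floor. The signs were alike for its other probe set, with -0.15 and -0.05. With the drug, Lgals3 had 0.42 and -0.67, a 5-month minus 2-month value of -1.09, and Cd68 had 0.05 and -0.40, which gives -0.44, though under median centring its 2-month value was -0.06 and the signs were alike. For the drug with diet against chow, Itgax had -0.06 and 0.71, which lie 0.76 apart. Route and duration of the drug differ together with the length of the study, so these cannot be told apart.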

How the results depend on the processing

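Among the alternatives run (quantile, cyclic loess and median-centred normalization, a floor at the 40th percentile, at the 60th percentile or none, other probe set rules and thresholds, and limma without the study or trend term), the sign of a difference of the 8 genes turned once, for Cd68 with the drug at 2 months (0.05, and -0.06 under median centring). Of the single-array differences under alternatives, 436 stayed on their side of 2-fold, 9 passed it and 3 dropped under it, Cd9 with the drug at 2 months (0.97, median centring, leaving 1 gene higher) and Atp6v0d2 with the diet at 5 months. Without a floor 3 genes were higher and 1 lower with the diet at 2 months, 1 was lower with the drug at 2 months and 1 was lower in 5-month than 2-month chow. At 1.5-fold 2 genes were higher with the diet at 2 months and 3 lower with the drug at 5 months. At 3-fold 0 and 4 were higher with the diet at 2 and 5 months, 1 with the drug at 2 months and 3 in drug against chow at 5 months. With only genes above the floor on all arrays, limma called 2 genes for the diet and 3 for drug against chow, of fewer genes tested (9874). Over all genes limma called 4 for the diet (0 to 134 under alternatives), 100 for the drug (7 to 384) and 107 for drug against chow (25 to 402). The lowest counts for the drug came from averaging probe sets and the highest from the filter on all arrays; the cause was not tested. Slide and scan date as a block were not run, since the value table gives neither. The study term compares treatments within each study, as a block, and without it limma called 1, 84 and 100 genes for the diet, the drug and drug against chow, none of them among the 7. Signals near the floor limit Trem2, Gpnmb, Mmp12 and Atp6v0d2.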

Other observations

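Some other genes of the wider lipid-associated macrophage list are described here, chosen after their values were seen. Tyrobp, the adaptor through which TREM2 signals, was well above the floor although Trem2 was under it, with signals of 1191.9 with chow, 2352.4 with fast food and 2942.3 with the drug at 2 months and of 935.2, 2914.0 and 3684.6 at 5 months. Many other myeloid receptors also use this adaptor. Lpl, the lipoprotein lipase gene, had 1371.3, 1990.8 and 6360.1 and then 968.1, 3880.7 and 12323.3, so that the drug array was the highest in each study, with log2 differences from the diet alone of 1.68 and 1.67. Fabp5, a fatty acid binding protein that hepatocytes also make, had 4967.4, 1274.8 and 12096.0 and then 6398.6, 2549.8 and 8285.1, lowest with fast food and highest with the drug in each study. Plin2, which coats lipid droplets in hepatocytes and macrophages alike, went the other way, with 13541.7, 33658.2 and 5288.8 and then 18819.8, 26557.3 and 10920.8. Each is 1 array per group with no test, and the cell type that gave these signals was not tested.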
